A study of Mus musculus with 8 samples.

Results

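A group of 9 genes of the complement system, adipsin among them, were described in brown adipose tissue (BAT). Complement is a set of plasma and tissue proteins that mark particles and dying cells for removal. In the classical pathway the recognition protein C1q, with its proteases C1r and C1s, leads to cleavage of C4 and C2 and then of C3, whereas in the alternative pathway factor D cleaves factor B bound to activated C3. Macrophages are a well known source of C1q outside the liver, and adipocytes are a main source of factor D, which is also called adipsin, and make C3 as well. The 9 genes encode the chains of C1q (C1qa, C1qb and C1qc), the protease C1r (C1ra), C4 (C4b), C3, factor D (Cfd), factor B (Cfb) and the receptor for the C3a fragment (C3ar1). They were picked by name among the 31053 genes of the count table because the C1q genes were higher and C3 was lower in the comparison given here. The differences between genotypes in the 9 genes are therefore descriptions and carry no test. All 9 passed the filter on low counts, which left 8930 genes and asks for 4.22 CPM in at least 4 mice. Cfb and C3ar1 reached that level in all 4 mice with the deletion and in 3 and 2 of the 4 WT mice.

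BAT of 4 WT mice and of 4 mice labelled ATGLKO, called Ucp1Δ/Δ below, was profiled by bulk RNA-seq with single-end reads. All mice were of the C57BL6/J strain and are given as 10 weeks old in the labels, whereas the study's figure legend for this comparison gives a younger age. In Ucp1Δ/Δ mice a floxed Pnpla2 gene, which encodes the lipase ATGL, is removed by a Cre recombinase under the Ucp1 promoter, so that the deletion is directed to thermogenic adipocytes and the other cells of the tissue keep the gene. As cell type the labels give the stromal vascular fraction, the cells left once adipocytes are taken away, but adipocyte transcripts were abundant in every sample: the fatty acid binding protein Fabp4 was at 6531 ± 175 CPM (SD, n = 4) in WT mice and 4990 ± 877 CPM (SD, n = 4) in Ucp1Δ/Δ mice.

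Pnpla2 was at 2913 ± 191 CPM (SD, n = 4) in WT mice and 474 ± 59.2 CPM (SD, n = 4) in Ucp1Δ/Δ mice, 16.3% of the WT mean, and the genotypes did not overlap. CPM, the usual depth-scaled count, used library sizes adjusted by the TMM method. Total counts were between 2017697 and 3115956 per mouse, so that 3 counts corresponded to 0.934 to 1.53 CPM, a floor that covers counting error only. Transcripts of 8 skeletal muscle genes varied between mice, from 19.4 to 1574 CPM in sum in WT mice and from 69.8 to 2259 CPM in Ucp1Δ/Δ mice, with the most in WT replicate 1 and Ucp1Δ/Δ replicate 2. Their part in the results was not tested. Without those 2 mice, the log2 fold changes of the 9 genes kept their sign.

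The C1q chains are encoded side by side on the minus strand of chromosome 4, within 18675 bases. C1qb (ENSMUSG00000036905) lies at chr4:136880129-136886187, C1qc (ENSMUSG00000036896) at chr4:136889804-136893065 and C1qa (ENSMUSG00000036887) at chr4:136895917-136898803 of GRCm38. C3 (ENSMUSG00000024164) lies on the minus strand at chr17:57203970-57228136, and Cfd (ENSMUSG00000061780) on the plus strand at chr10:79890853-79892655. The sequence before the RefSeq start (GRCm38.p6) was read for the 6 of the 9 genes that the promoter table holds. It is shown for C1qb and C1qc, which were higher in Ucp1Δ/Δ mice, for C3, which was lower, and for Cfd, whose genotypes overlapped. C1qa, C4b and Cfb had no entry. Each is written 5′ to 3′ on the strand of its gene, with a match to any of 3 motifs in capitals.
C1qb, chr4:136886201-136886450, minus strand: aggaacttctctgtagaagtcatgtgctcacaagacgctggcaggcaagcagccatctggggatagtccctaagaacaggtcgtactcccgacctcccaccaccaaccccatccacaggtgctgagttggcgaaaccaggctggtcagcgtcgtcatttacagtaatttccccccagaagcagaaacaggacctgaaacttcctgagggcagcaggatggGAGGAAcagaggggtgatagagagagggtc
C1qc, chr4:136893066-136893164, minus strand: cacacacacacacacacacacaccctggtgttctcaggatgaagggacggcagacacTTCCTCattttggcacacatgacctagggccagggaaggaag
C3, chr17:57228137-57228386, minus strand: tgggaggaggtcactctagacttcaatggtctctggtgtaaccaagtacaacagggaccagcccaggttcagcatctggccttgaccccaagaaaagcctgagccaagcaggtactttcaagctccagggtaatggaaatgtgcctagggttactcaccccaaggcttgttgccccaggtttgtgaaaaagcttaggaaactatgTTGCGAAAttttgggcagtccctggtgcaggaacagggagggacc
Cfd, chr10:79890603-79890852, plus strand: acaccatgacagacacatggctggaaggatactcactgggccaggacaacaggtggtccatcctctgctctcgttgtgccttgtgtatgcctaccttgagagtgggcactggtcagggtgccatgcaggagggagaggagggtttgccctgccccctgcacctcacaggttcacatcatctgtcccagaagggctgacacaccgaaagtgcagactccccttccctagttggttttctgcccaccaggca
For C1qc, 151 bases nearest the RefSeq start are left out because an annotated exon covers them. For C1ra, which is not shown, 216 bases were left out in the same way and 34 were read.

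The motifs searched, on both strands, were GAGGAA, the core of sites for the macrophage factor PU.1, TTGCGNAA, a form of the site for the C/EBP factors of adipocytes and liver, and TATAAA, the TATA box. They were chosen after the expression values had been seen. C1qb held GAGGAA 30 to 25 bases before the start, and C1qc held it on the other strand, as TTCCTC, 193 to 188 bases before the start. C3 held TTGCGNAA, as TTGCGAAA, 45 to 38 bases before the start. C3ar1, whose sequence is not shown, held TATAAA 235 to 230 bases before the start and no match to GAGGAA or TTGCGNAA. The short stretch read for C1ra held none of the 3 motifs. In Cfd the letters of the 3 motifs are not in the window shown. Among 32851 mouse promoter windows of 250 bases, 23.3% held GAGGAA, 0.67% TTGCGNAA and 12.4% TATAAA. Those windows are longer than the stretches read for C1qc, C1ra and C3ar1. A match is a description of the letters and not of binding.

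The C1q genes were higher in every Ucp1Δ/Δ mouse than in any WT mouse. C1qa, the A chain, was at 30.6, 30.0, 21.0 and 19.2 CPM in WT replicates 1 to 4 and at 292.6, 283.8, 195.6 and 164.8 CPM in Ucp1Δ/Δ replicates 1 to 4. The lowest Ucp1Δ/Δ mouse was thus well above the highest WT mouse, and the mean went from 25.2 ± 5.92 to 234 ± 63.7 CPM (SD, n = 4 each), 9.28-fold, with a log2 fold change of 3.22 (standard error 0.24). C1qb, the B chain, was at 18.4, 28.2, 14.4 and 21.3 CPM in WT mice and at 227.1, 219.1, 127.9 and 175.1 CPM in Ucp1Δ/Δ mice. Its genotypes did not overlap either, and the log2 fold change was 3.19 (standard error 0.25). C1qc, the C chain, was at 9.18, 10.3, 5.34 and 8.11 CPM in WT mice and at 69.0, 98.6, 55.6 and 56.7 CPM in Ucp1Δ/Δ mice, again without overlap, and the log2 fold change was 3.11 (standard error 0.26). In bulk tissue, more cells of a type and more RNA per cell cannot be told apart, and likewise for fewer cells and less RNA.

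The C1q protein needs all 3 chains, and the proportions of their transcripts within a mouse overlapped between genotypes. The ratio of C1qa to C1qb counts ran from 0.905 to 1.67 among WT mice and from 0.941 to 1.53 among Ucp1Δ/Δ mice. The mean log2 ratio differed by 0.01 between genotypes, against an SD of 0.41 among WT mice. For C1qa to C1qc the mean log2 ratio differed by 0.12 (WT SD 0.31), and for C1qb to C1qc by 0.11 (WT SD 0.21). The 3 chains thus shifted by similar factors, within the spread between mice.

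**Figure D1:**
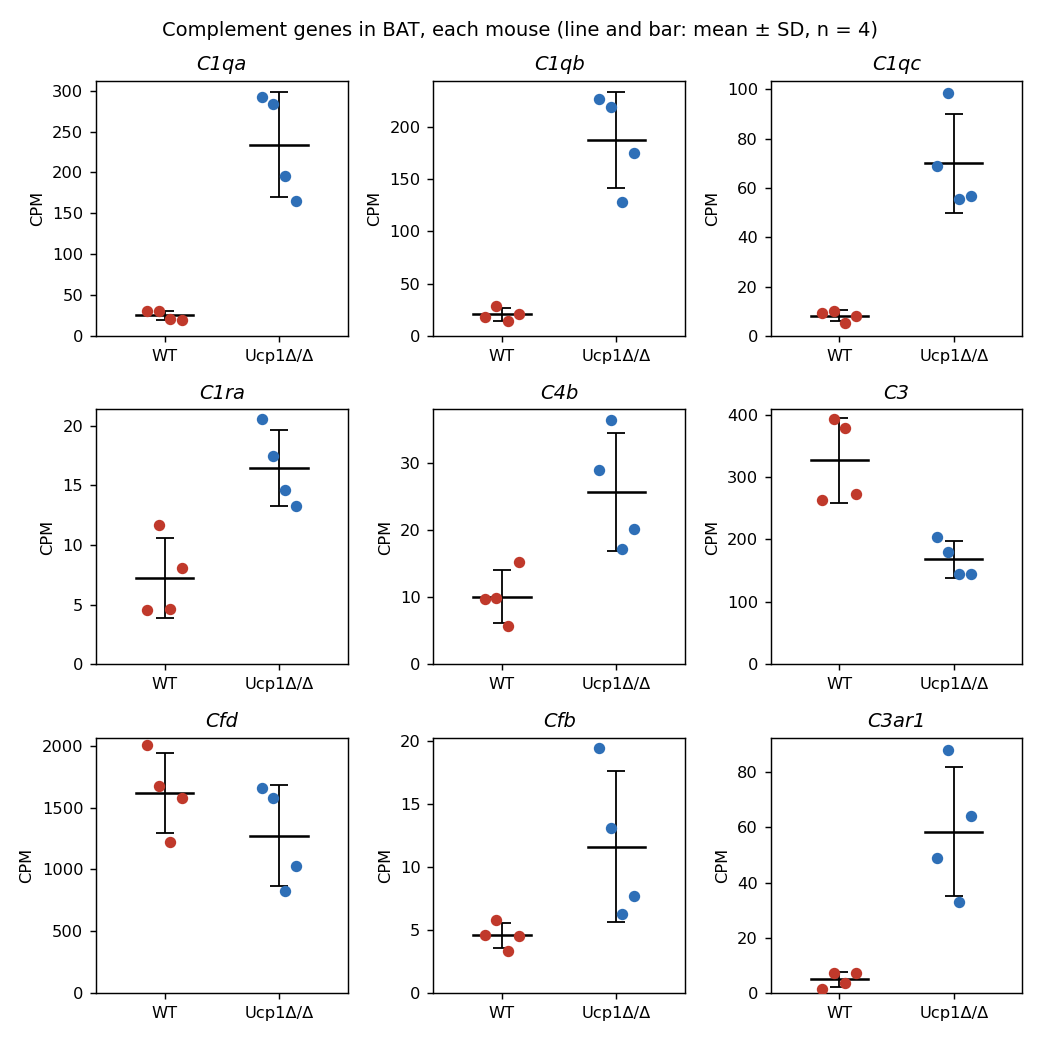
Level of each of the 9 complement genes in CPM (linear axis from 0) in each mouse, WT in red and Ucp1Δ/Δ in blue, with the mean and SD of 4 mice in black. Points run from replicate 1 to 4 from left to right. The genotypes are apart in 8 genes and overlap in Cfd.

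C1ra and C4b act after C1q in the classical pathway. C1ra (ENSMUSG00000055172) encodes the first protease of the complex and was at 4.59, 11.7, 4.68 and 8.11 CPM in WT mice and at 20.5, 17.4, 14.6 and 13.3 CPM in Ucp1Δ/Δ mice. The lowest Ucp1Δ/Δ mouse stood just above the highest WT mouse, and the log2 fold change was 1.20 (standard error 0.30). The close copy C1rb had 0 counts in all mice, so reads shared by the pair could not be traced. C4b (ENSMUSG00000073418), the C4 gene that supplies the classical and lectin pathways, was at 9.69, 9.86, 5.68 and 15.2 CPM in WT mice and at 29.0, 36.4, 17.1 and 20.2 CPM in Ucp1Δ/Δ mice. Its genotypes did not overlap, by a narrow margin between WT replicate 4 and Ucp1Δ/Δ replicate 3, and the log2 fold change was 1.39 (standard error 0.31). No entry of the count table carried the symbol of the near-identical gene C4a. Whether reads of C4a were counted as C4b or left out could not be told, so C4b is uncertain to that extent.

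C3, where the pathways meet, went the other way. It was at 263.6, 392.9, 378.7 and 273.0 CPM in WT mice and at 203.8, 179.5, 144.2 and 144.6 CPM in Ucp1Δ/Δ mice. Every Ucp1Δ/Δ mouse was below every WT mouse, and the mean went from 327 ± 68.2 to 168 ± 29.0 CPM (SD, n = 4 each), 51.4% of WT, with a log2 fold change of -0.96 (standard error 0.19). C3ar1 (ENSMUSG00000040552), the receptor for the C3a fragment that is carried by myeloid cells, was at 1.53, 7.17, 3.67 and 7.09 CPM in WT mice, which is 3 to 16 counts. In Ucp1Δ/Δ mice it was at 48.8, 88.1, 33.0 and 64.0 CPM. The genotypes did not overlap, and the log2 fold change was 3.59 (standard error 0.37). It was 3.31 without WT replicate 1, the mouse with 3 counts, and 3.07 without that mouse and Ucp1Δ/Δ replicate 2. The ligand precursor C3 and its receptor C3ar1 thus differed between genotypes in opposite directions in the same 8 mice.

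The proteases of the alternative pathway differed from each other. Cfd, adipsin, was at 2006, 1672, 1223 and 1580 CPM in WT mice and at 1660, 1580, 826.6 and 1026 CPM in Ucp1Δ/Δ mice. The genotypes overlapped, since Ucp1Δ/Δ replicates 1 and 2 lay within the WT range and replicates 3 and 4 below it. The mean was 1620 ± 322 CPM in WT mice and 1273 ± 410 CPM in Ucp1Δ/Δ mice (SD, n = 4 each), 78.6% of WT, with a log2 fold change of -0.35 (standard error 0.23). With each mouse left out in turn, that value lay between -0.49 and -0.18. Cfb (ENSMUSG00000090231), factor B, was at 4.59, 5.82, 3.34 and 4.56 CPM in WT mice and at 19.5, 13.1, 6.27 and 7.73 CPM in Ucp1Δ/Δ mice. The genotypes were apart by little in replicate 3 of Ucp1Δ/Δ, which had 15 counts, and the log2 fold change was 1.37 (standard error 0.37). Exons of Cfb overlap the readthrough gene Gm20547 on the same strand, which had 0 counts in all mice.

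Per kilobase of the longest annotated transcript, the order of the mean levels in WT mice was Cfd at 1757 CPM per kilobase, C3 at 63.7, C1qa at 24.3, C1qb at 18.9, C1qc at 6.84, C1ra at 2.43, C4b at 1.88, Cfb at 1.66 and C3ar1 at 1.13. C1qa and C1qb overlapped between mice, and so did the neighbours from C1ra to C3ar1. In Ucp1Δ/Δ mice C1qa, at 225 ± 61.3 CPM per kilobase, and C1qb, at 172 ± 42.0, stood above C3, at 32.7 ± 5.65 (SD, n = 4 each). In CPM, without the division by length, C1qa at 234 ± 63.7, C1qb at 187 ± 45.7 and C3 at 168 ± 29.0 (SD, n = 4 each) overlapped among the Ucp1Δ/Δ mice. Per kilobase, Cfd stayed first, at 1381 ± 445. Whether reads cover whole transcripts is not given in the sources used here, and with reads from one end of the transcript a division by length would understate long genes.

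Of the 9 genes, 7 were called higher, 1 was called lower and Cfd was neither in the quasi-likelihood test of edgeR (adjusted p under 0.05), beside 13.3% higher and 7.63% lower among all genes tested, 21.0% in either direction. The genotypes did not overlap in 8 of the 9, 7 higher and 1 lower, beside 14.4% of all genes higher without overlap, 9.37% lower and 23.7% in either direction. Nothing is read from these counts, because the same contrast chose the genes.

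Other genes of the system were taken from a list of 45, of which 44 were in the table and 13 passed the filter. Of those 13, 8 were higher in Ucp1Δ/Δ mice, 0 were lower and 5 were not called at an adjusted p under 0.05 (quasi-likelihood test of edgeR, adjusted over all genes). No gene was lower at an unadjusted p under 0.05 either, and DESeq2 and limma also gave 0 lower. The median log2 fold change of the 13 was 1.69, against -0.01 over all genes tested. The filter bears on these counts, since 7 of the 13 reached 4.22 CPM in all Ucp1Δ/Δ mice but not in all WT mice, and no gene did the reverse. A gene that passed through the mice where it is high was more likely to differ, although C2, which passed in this way, was not called. Under a filter of 10 counts or more in each mouse, 3 of the 5 genes left were higher.

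In the classical and lectin pathways 2 genes were tested. C1s1, the protease that C1r activates, was at 8.71 ± 3.64 CPM in WT and 27.3 ± 6.84 CPM in Ucp1Δ/Δ mice (SD, n = 4 each). The log2 fold change was 1.69 (standard error 0.30). C1s1 reached the filter's level in 3 of 4 WT mice and in all Ucp1Δ/Δ mice, so its call as higher adds no support. Its copy C1s2 had 0 counts, and its exons overlap Gm16567 on the other strand, with the use of strand in counting not given in the sources used here. C2 had a log2 fold change of 1.15 (standard error 0.51, adjusted p = 0.127, edgeR). The mannose-binding lectins Mbl1 and Mbl2 had 0 counts in all mice. In the alternative pathway Cfp, properdin, which stabilizes the C3 convertase, went from 2.90 ± 1.35 to 18.6 ± 6.84 CPM (SD, n = 4 each). Its log2 fold change was 2.74 (standard error 0.38). Cfp reached the filter's level in 1 of 4 WT mice and in all Ucp1Δ/Δ mice, so its call as higher adds no support. None of the 7 genes of the terminal pathway had enough counts to be tested, and C8a, C8b and C9 had 0 counts.

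The complement receptors tested were the integrin genes Itgam, Itgax and Itgb2, which form complement receptors 3 and 4 and also mark myeloid cells. They had few counts in WT mice and passed the filter through the Ucp1Δ/Δ mice, so their calls as higher add no support. Itgam went from 4.23 ± 1.63 to 20.3 ± 8.58 CPM (SD, n = 4 each), with a log2 fold change of 2.30 (standard error 0.36). Itgax had 2 counts over the 4 WT mice and 178 over the 4 Ucp1Δ/Δ mice, a ratio of 75.8 (exact 95% counting interval 20.7 to 630.0). Itgb2 had 2 counts against 120, a ratio of 51.1 (exact 95% counting interval 13.8 to 427.0). The receptors for the C5a fragment had too few counts to be tested, with 3 counts in WT and 58 in Ucp1Δ/Δ mice for C5ar1. Without the 3 integrin genes, 5 of 10 genes were higher and 0 lower. Cfp and C1s1 are among these 5, and they too passed the filter through the Ucp1Δ/Δ mice.

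Of the 7 regulators tested, 3 were higher, among them Serping1 and Clu. Serping1, the inhibitor of C1r and C1s, went from 26.6 ± 4.81 to 84.8 ± 20.6 CPM (SD, n = 4 each), with a log2 fold change of 1.67 (adjusted p = 4.28e-05, edgeR). Clu, clusterin, which binds the terminal complex, went from 10.6 ± 3.50 to 77.3 ± 14.4 CPM (SD, n = 4 each), with a log2 fold change of 2.90 (adjusted p = 1.41e-06, edgeR). The membrane regulators did not pass the test: Cd59a had a log2 fold change of 0.45 (adjusted p = 0.0949, edgeR) and Cr1l one of 0.23 (adjusted p = 0.442, edgeR), at means of 145 and 37.7 CPM in WT mice. Cd55, with a log2 fold change of 0.95, and Cpn2, with 0.18, were not called either. Cd59a and Cd55 have close copies that can share reads.

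**Figure D2:**
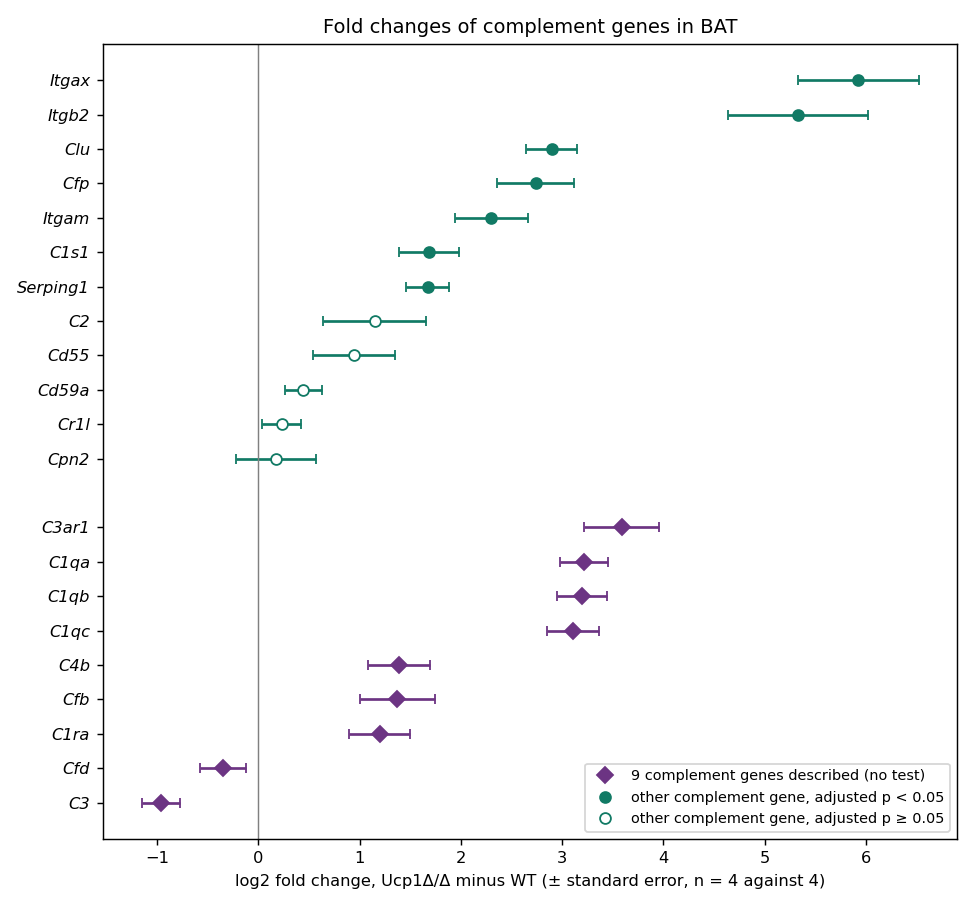
Log2 fold change (Ucp1Δ/Δ minus WT, 4 mice each) with its standard error for the 9 complement genes described (purple, no test) and 12 of the other complement genes tested (green, filled where the adjusted p is under 0.05). All 12 lie above 0 and 7 are filled, whereas C3 and Cfd lie below 0.

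Markers of the cells that could supply these transcripts differed in the same mice. Of 15 macrophage markers tested, 13 were higher and 0 lower in edgeR (0 lower at an unadjusted p under 0.05, and 0 lower in DESeq2 and limma), with a median log2 fold change of 2.83 against -0.01 over all genes. Of the 15, 10 reached the filter's level in all Ucp1Δ/Δ mice but not in all WT mice, so that the filter itself favoured genes that were higher. Under the filter of 10 counts in each mouse, 6 of the 6 markers left were higher. The summed level of the markers was 149.9 to 192.7 CPM in WT mice and 1008 to 1797 CPM in Ucp1Δ/Δ mice. Among the most abundant were the lysozyme Lyz2, with a log2 fold change of 3.67 (adjusted p = 4.03e-07, edgeR), the protease Ctss at 4.40 (adjusted p = 2.04e-07, edgeR) and the growth factor receptor Csf1r at 2.83 (adjusted p = 2.53e-07, edgeR).

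Of 15 adipocyte markers, all tested, 8 were lower and 1 higher in Ucp1Δ/Δ mice, with a median log2 fold change of -0.80, and their summed level was 17400 to 27770 CPM in WT mice and 11900 to 17470 CPM in Ucp1Δ/Δ mice. Cidea, a lipid droplet protein, had a log2 fold change of -1.16 (adjusted p = 0.00211, edgeR) and Pck1, an enzyme of glyceride glycerol synthesis, one of -0.89 (adjusted p = 0.00343, edgeR). Fabp4 at -0.39 (adjusted p = 0.127, edgeR) and the uncoupling protein Ucp1 at -0.34 (adjusted p = 0.481, edgeR) were not called. The gene called higher was Lep, leptin, with 0 to 13 counts in WT mice and 94 to 198 in Ucp1Δ/Δ mice. It reached the filter's level in 1 of 4 WT mice and in all Ucp1Δ/Δ mice. Lep thus passed the filter through the mice where it is high, so its call adds no support. Its log2 fold change of 4.89 rests on few WT counts.

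Of 12 stromal markers tested, 11 were higher and 0 lower in edgeR (0 lower at an unadjusted p under 0.05, and 0 lower in DESeq2 and limma), with a median log2 fold change of 1.54. Here 6 of the 12 reached the filter's level in all Ucp1Δ/Δ mice but not in all WT mice. Under the filter of 10 counts in each mouse, 6 of the 6 left were higher. The summed level of the list was 595.7 to 933.1 CPM in WT mice and 1943 to 3170 CPM in Ucp1Δ/Δ mice. Gsn, gelsolin, was at 1.49 (adjusted p = 9.44e-05, edgeR), the proteoglycan Dcn at 1.27 (adjusted p = 0.000151, edgeR), and the collagens Col3a1 and Col1a1 at 2.74 and 2.39 on the log2 scale. Of 7 endothelial markers 0 were called in edgeR, DESeq2 or limma, and 2 were higher at an unadjusted p under 0.05 in edgeR. The 8 hepatocyte markers, whose cells make most plasma complement, summed to at most 1.25 CPM in any mouse, with Apoh, Fgb and Ahsg at 0 counts in all mice. Neutrophil and lymphocyte markers had no gene with enough counts to be tested, with sums of at most 10.3 CPM in any mouse, and Ly6g and Cd79a were at 0 counts.

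**Figure D3:**
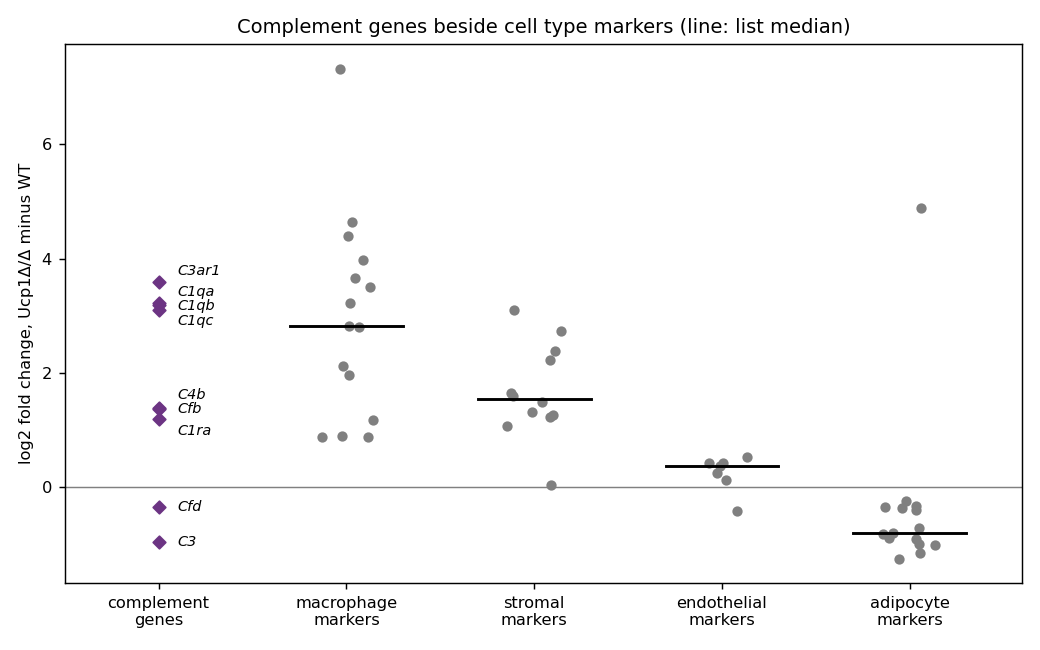
Log2 fold change (Ucp1Δ/Δ minus WT) of the 9 complement genes (purple) beside the tested markers of 4 cell types (grey points, 1 per gene, with the list median as a line). C1qa, C1qb and C1qc, at 3.11 to 3.22, and C3ar1, at 3.59, lie above the macrophage median of 2.83. C4b, Cfb and C1ra, at 1.20 to 1.39, lie below the stromal median of 1.54. C3, at -0.96, lies below the adipocyte median of -0.80, and Cfd, at -0.35, lies above it.

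The complement genes were then set against these lists within each mouse, as the log2 CPM of the gene minus the mean log2 CPM of the list. The macrophage mean was 2.68 log2 units higher in Ucp1Δ/Δ than in WT mice, the stromal mean 1.66 higher, and the adipocyte mean differed by -0.35. Relative to the macrophage markers, C1qa was at 1.81 ± 0.32 in WT and 2.29 ± 0.32 in Ucp1Δ/Δ mice (SD, n = 4 each), a difference of 0.48. For C1qb the difference was 0.46, for C1qc 0.29 and for C3ar1 0.78, which was 0.41 without WT replicate 1. The genotypes overlapped in all 4 genes on this relative scale, whereas they were apart in CPM. The overlap was narrow in C1qb (highest WT mouse 1.816, lowest Ucp1Δ/Δ mouse 1.765), C1qc (0.457 and 0.400) and C3ar1 (0.007 and -0.067). All 4 differences stayed above 0 in every alternative. Whether they reflect the number of macrophages or their RNA was not tested.

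Relative to the adipocyte markers, C3 was at -0.35 ± 0.21 in WT and -0.95 ± 0.15 in Ucp1Δ/Δ mice (SD, n = 4 each), without overlap. The difference of -0.60 depended on how the list was summarised, and was -0.07 with the list's median in place of its mean. Lep is a member of that list and was higher. Cfd differed by -0.04 on this scale, with overlap, by between -0.19 and 0.12 with each mouse left out in turn, and by 0.50 with the list's median. Cfb was 1.45 higher, without overlap, and 1.99 higher with the median. Relative to the stromal markers, C1ra differed by -0.48 and C4b by -0.36, both with overlap, and C3 by -2.61, without overlap. The value of C4b was -0.08 without WT replicate 4. Which cells carried the transcripts was not tested, since the tissue was measured whole.

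**Figure D4:**
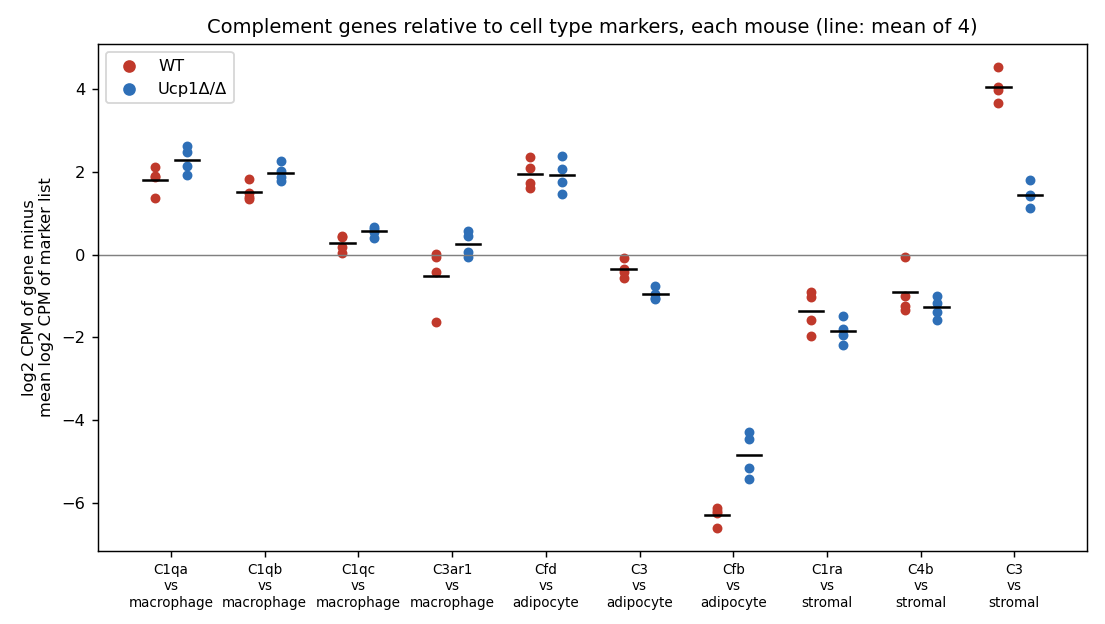
Log2 CPM of a complement gene minus the mean log2 CPM of a marker list in each mouse, WT in red and Ucp1Δ/Δ in blue, with the mean of 4 mice as a line. Red and blue overlap for the C1q genes and C3ar1 against macrophage markers, for Cfd against adipocyte markers and for C1ra and C4b against stromal markers, and are apart for C3 against both of its lists and for Cfb.

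The genes with the most similar pattern over the 8 mice were found by the root mean square difference of log2 CPM, centred on each gene's mean, among 6420 genes with a mean of at least 10 CPM. It includes the difference between genotypes that chose the genes and is a description. For C1qa they were Cd52 at 0.26 log2 units, Spi1 at 0.27, Clec4a1 at 0.29, Csf1r at 0.30 and Fcer1g at 0.31, beside 0.26 for C1qc and 0.30 for C1qb. For C3 they were Ddx41 at 0.09, Slc27a1 at 0.16, and Gosr2, Pck1 and Adipoq at 0.17, 0.17 and 0.18. For Cfd they were Eif2s1 at 0.17, Mt1 at 0.18, and Bcat2, Uso1 and Tmem167 at 0.19 each. C3 and Cfd were 0.46 log2 units from each other. That distance cannot be compared with those of the 5 genes named for each, which were picked as the nearest.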

How the data were processed

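The authors deposited whole-number counts per Ensembl gene for 8 mice, without normalization. Per the study's methods, reads were trimmed with bbduk, aligned to mm10 with STAR and counted with HTseq-counts, while the submitters' processing notes name Trimmomatic, HISAT2 and DESeq2. The authors also deposited log2 values, the log2 of each count divided by 1 factor per mouse, plus 1, which were used for 1 alternative. A table of sample attributes was not used. Groups and replicate numbers came from the sample labels.

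Symbols and positions came from GENCODE annotation of GRCm38, and 30934 of 31053 identifiers had a symbol. Analyses used R 4.3.3, edgeR 4.0.16, limma 3.58.1 and DESeq2 1.42.0. Genes were filtered with filterByExpr, and library sizes scaled by TMM. The 2 genotypes were compared by the quasi-likelihood test of edgeR, with Benjamini-Hochberg adjusted p under 0.05 as the call. The standard error is the size of the log2 fold change over the square root of F. Log2 CPM used a prior count of 2. Depth was 2017697 to 3115956 counts per mouse. Between mice of the same genotype the chi-square per degree of freedom was 4.69 to 23.2, so no library was taken for a duplicate.

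The 9 genes and the gene lists were chosen with earlier results of these data known. Genes named were the 9, Pnpla2, the tested genes of the complement list, the 4 most abundant genes of a marker list and those at 0, and the 5 nearest in pattern. Of the genes this rule names, 2 are not reported here. Lep and C5ar1 were named after their values were seen, as were the 3 motifs. Alternatives were other scaling, DESeq2's Wald test, limma on the deposited log2 values, other filters, a block for the replicate number, leaving out single mice, and a list's median. Leaving out WT replicate 1 and Ucp1Δ/Δ replicate 2 together was chosen after seeing the data.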

Additional observations from a re-analysis of the deposited data

Results flagged for a closer look

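Serping1, the C1 inhibitor, stood apart in 1 WT mouse. WT replicate 1 was at 4.34 on the log2 CPM scale, from 38 counts, and the other WT mice were between 4.87 and 4.92, so that the gap to the nearest mouse was 0.917 of the whole WT range. Of 44 groups of 4 mice examined, this was the 1 with a mouse so far apart, against 2.2 by chance at 1 in 20.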

How the results depend on the processing

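Of 348 recomputed values, 342 were taken as the same. A count of genes was taken as the same within 1.5-fold. The other values among the 342 kept their direction and side of the threshold or stayed within the spread between mice. With at least 10 counts in every mouse as the filter, 3 of 5 other complement genes, 6 of 6 macrophage markers and 6 of 6 stromal markers were higher, since fewer genes were tested, and C1ra, Cfb and C3ar1 had no value. With the median over the list, the differences relative to adipocyte markers were -0.067 for C3, 1.99 for Cfb and 0.50 for Cfd, the last with its direction turned, and the cause was not tested. With each mouse left out in turn, other complement genes higher numbered 8 to 9, macrophage markers higher 11 to 15, adipocyte markers lower 7 to 9 and stromal markers higher 8 to 11. Without WT replicate 1 and Ucp1Δ/Δ replicate 2 these counts were 8, 12, 7 and 8. Scaling by total counts only moved the median log2 fold change of all genes from -0.01 to 0.13. Same-numbered mice are different animals, and their deviations from the group means correlated at -0.09, -0.20, 0.30 and 0.24. These correlations cannot show whether mice of the same number shared a litter or batch, and the main test did not pair them. With the replicate block, 8 other complement genes were higher and 0 lower, 14 macrophage and 11 stromal markers were higher and 8 adipocyte markers lower. Depth limits the terminal pathway and lectin genes, most of which had 10 counts or fewer.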
